A study of Mus musculus with 120 samples.

Results

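The effect of paclitaxel on gene expression in mouse dorsal root ganglia (DRG) was compared between the days around dosing and the days after it. Dorsal root ganglia hold the cell bodies of sensory neurons, and paclitaxel is a microtubule-stabilising chemotherapy drug that causes a painful neuropathy. All 32 DRG libraries were used, 1 per mouse, of the 64 DRG and skin libraries of the series. The near effect was the mean paclitaxel minus vehicle difference of days 4 and 7, the late effect was that of days 11 and 23, and the interaction was the near effect minus the late effect, all on the log2 scale. All 18709 genes that passed a filter on low counts were tested, of 52276 named genes.

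The mice were male C57B6/J, 6 weeks old, and received intraperitoneal paclitaxel at 4 mg/kg or its vehicle (Cremophor and ethanol in saline) on days 0, 2, 4 and 6. The 8 groups were vehicle and paclitaxel on each of days 4, 7, 11 and 23, with 4 mice per group, and the study describes these days as onset, maximal pain, beginning resolution and recovery. Day 4 falls on an injection day, and day 7 follows the last injection. The left lumbar ganglia of each mouse were taken, so neurons, glia, vascular and immune cells are mixed in each library, and fewer cells of a type and less RNA per cell cannot be told apart. Mice were housed 4 to a cage, which mice shared a cage is not stated, and cage and day of collection cannot be told apart from the groups.

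Several responses known from this tissue frame the comparison. Injured sensory neurons switch on a regeneration programme that includes the transcription factor Atf3, the small proline-rich protein Sprr1a, the endopeptidase-like protein Ecel1 and the cholecystokinin receptor Cckbr. Glucocorticoids raise Fkbp5, a co-chaperone of their receptor, and Zbtb16, a zinc finger transcription factor. In the circadian clock, Arntl and Clock switch on genes with E-box motifs, such as the Per genes, Nr1d1, Dbp and Ciart, and some of their products repress Arntl in turn. When unfolded proteins collect in the endoplasmic reticulum, Xbp1 and Atf6 raise chaperones such as Hspa5 (BiP).

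Short promoter stretches are shown first for 4 of the genes whose late effect is described below, chosen because they hold a motif known from those pathways. They come from RefSeq (GRCm38.p6), run 5′ to 3′ on the strand of the gene, and capitals mark the fixed bases of a motif match on either strand. The first 3 hold the endoplasmic reticulum stress element, which is CCAAT and CCACG with 9 bases of any kind between them, and in Creld2 it lies on the opposite strand. The Ciart stretch holds 3 copies of the E-box CACGTG.
Hspa5, chr2:34772010-34772058: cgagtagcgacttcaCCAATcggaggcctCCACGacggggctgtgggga
Pdia6, chr12:17266476-17266524: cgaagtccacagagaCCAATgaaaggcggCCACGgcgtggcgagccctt
Creld2, chr15:88819505-88819553: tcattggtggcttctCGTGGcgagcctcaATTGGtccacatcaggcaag
Ciart, chr3:95882252-95882359: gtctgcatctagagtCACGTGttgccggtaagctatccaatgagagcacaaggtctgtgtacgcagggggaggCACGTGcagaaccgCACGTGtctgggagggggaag

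Within the 250 bases before the start, the stress element was found in 6 of the 16 endoplasmic reticulum stress genes with a promoter in the table (37.5%), and in 35 of all 27025 promoters (0.13%) and 0.164% of those of the genes tested. The E-box was found in 5 of 12 clock repressor and output genes (41.7%) and in 6.86% of all promoters and 9.2% of those of the genes tested. The clock genes with an E-box included Per1, Cry1 and Ciart. No E-box was found for Dbp or Nr1d1 and no stress element for Xbp1 or Manf. Such genes hold no match in the window or had no promoter sequence here. A match of letters is a description of the window and not a measured binding site.

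No gene passed the test of the interaction. With edgeR's quasi-likelihood test, 0 of 18709 genes (0%) had an adjusted p under 0.05, the smallest adjusted p was 0.645, and 1134 genes (6.06%) had an unadjusted p under 0.05. DESeq2's Wald test called 2 genes, Grcc10 and Rcan3. The median of the interaction over all genes was 0.01. Its standard error had a median of 0.18, and the 95% interval lay within 1 log2 unit of 0 for 13611 genes (72.8%), among them 10712 of the 10809 genes with an average of at least 3 log2 CPM, the counts scaled to library size. For the other genes a change of effect larger than 2-fold between the periods was not bounded. A test of any spread between the 4 daily effects called 0 genes, with a smallest adjusted p of 0.433.

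The periods taken singly had few called genes. The near effect called 4 genes (0.0214% of those tested): Ecel1 and Cckbr rose, and Fkbp5 and Zbtb16 fell (0.0107% in each direction). The late effect called 22 genes (0.118%), 8 higher (0.0428%) and 14 lower (0.0748%), again including Fkbp5 and Zbtb16. At an unadjusted p under 0.05 there were 462 genes (2.47%) in the near effect and 1673 (8.94%) in the late effect. A gene called in 1 period and not in the other is not thereby shown to differ between them, since no interaction passed.

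**Figure D1:**
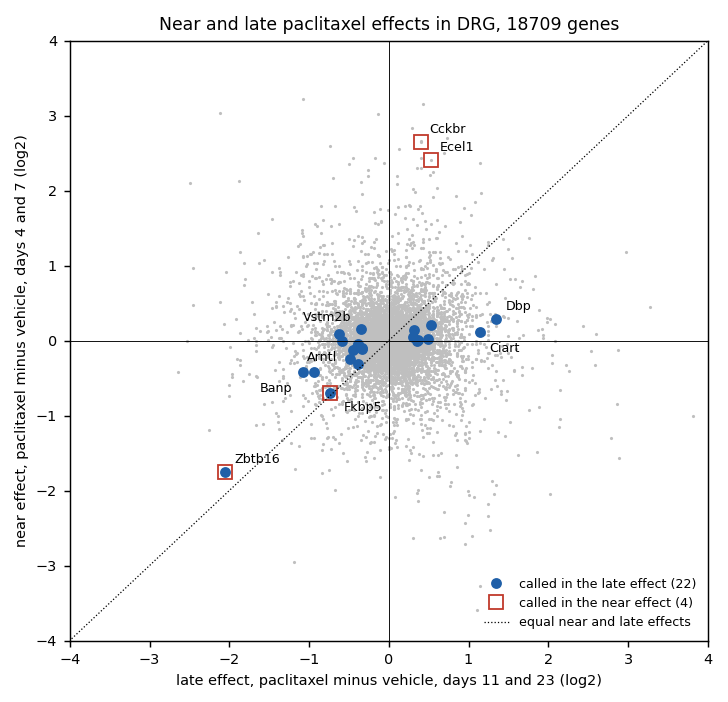
Near effect (vertical axis) against late effect (horizontal axis), both paclitaxel minus vehicle in log2 units, for all genes tested (grey; 1 gene lies outside the axes), with the 22 genes called late as filled circles and the 4 called near as open squares. Fkbp5 and Zbtb16 sit close to the line of equal effects, Ecel1 and Cckbr lie high on the near axis, and the remaining late genes lie closer to 0 on the near axis than on the late axis.

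The 2 periods used different mice throughout. Over all genes the near and late effects had the same sign in 8530 of 18709 (45.6%), and across genes their Pearson r was -0.04, where genes are not independent replicates. Of the 22 genes called late, 19 had the same sign near dosing. Of all 22, whatever the sign, 8 had an unadjusted near p under 0.05 (2.47% of all genes had). These genes were chosen by a large late effect, so their near values can be smaller from that choice alone.

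Ecel1, on chr1:87147655-87156521 and known to be induced in injured neurons, was called higher in the near effect. On day 4 its level was 2.41, 2.71, 6.03 and 1.23 CPM in the paclitaxel mice and 0.969, 0.408, 0.367 and 0.665 CPM in the vehicle mice. On day 7 it was 1.25, 2.40, 2.72 and 7.70 CPM after paclitaxel and 0.425, 1.03, 0.474 and 0.699 CPM after vehicle. The groups did not overlap on either near day. Groups were apart for 3.15% of all genes on day 4, 4.45% on day 7, 4.05% on day 11 and 5.04% on day 23, and this held on both near days in the same direction for 0.0428%. On day 11 the paclitaxel mice were at 1.02, 0.538, 1.13 and 3.14 CPM and the vehicle mice at 3.98, 3.87, 0.818 and 0.963 CPM, so the groups overlapped and 2 vehicle mice were above every treated one. On day 23 the groups again did not overlap, with 1.07, 2.22, 0.933 and 3.44 CPM after paclitaxel against 0.464, 0.573, 0.730 and 0.448 CPM after vehicle. The near effect was 2.41 ± 0.44 (SE; adjusted p = 0.0284, edgeR) and the late effect 0.53 ± 0.42 (adjusted p = 0.77). The interaction was 1.88, with a 95% interval of 0.64 to 3.11 (edgeR, unadjusted p = 0.00411, adjusted p = 0.671). With day 11 left out of the contrast it was 0.62, with day 23 left out it was 3.13, and without the libraries DRG09, DRG34 and DRG35 described below it was 1.96.

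Cckbr, on chr7:105425731-105470898, was also called higher in the near effect, at very low counts. In the near period its level had a lowest, median and highest value of 0.278, 0.88 and 2.75 CPM in 8 paclitaxel mice and 0.0278, 0.196 and 0.29 CPM in 8 vehicle mice. In the late period these were 0.198, 0.645 and 1.31 CPM after paclitaxel and 0.206, 0.45 and 1.42 CPM after vehicle. Pooled over the days of each period, the near groups touched at a single paclitaxel mouse and the late groups overlapped almost fully. These pooled ranges do not show the single days. The near effect was 2.65 ± 0.48 (adjusted p = 0.0284, edgeR), the late effect 0.40 ± 0.45 and the interaction 2.25 (0.91 to 3.59; adjusted p = 0.67). Over the alternative settings, which included leaving out single days, the interaction lay between 1.23 and 3.27. The calls of Ecel1 and Cckbr in the near period were each lost when single mice were left out, 8 and 9 of the 32 times, with limma voom, and without the 11 libraries described below that held skin keratin.

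Sprr1a, a marker of regrowing axons, did not pass the near test in the edgeR fit (2.7 ± 0.54, adjusted p = 0.0881) and passed it with DESeq2, limma voom and 4 further settings. Its near levels ranged from 1.47 to 9.96 CPM after paclitaxel and from 0.314 to 1.7 CPM after vehicle. Its late levels ranged from 0.187 to 3.63 CPM and from 0 to 4.83 CPM, so the late groups overlapped. The late effect was 0.73 ± 0.55 and the interaction 1.97 (0.40 to 3.53; adjusted p = 0.759, edgeR). Of the 17 tested genes of nerve injury and regeneration, 16 were above 0 in the near effect (51.6% of all genes were). The list's median was 0.19, 7 had an unadjusted p under 0.05 (2.47% of all genes), and 2 were called, Ecel1 and Cckbr (0.0214%). In the late effect 10 of 17 were above 0 (47.1% of all genes were) with a median of 0.09 and 0 were called. The late mean joins unlike days: the mean log2(CPM + 1) of the list was 3.50 after paclitaxel and 3.62 after vehicle on day 11, with overlapping groups, and 3.50 against 3.24 on day 23. On day 23 the mice of the groups did not overlap (3.327 to 3.763 against 3.17 to 3.307), and neither did they on days 4 and 7. The list's median interaction was 0.30, beside 0.01 over all genes. An unadjusted interaction p under 0.05 (6.06% of all genes) was found for 5 members in the higher direction and 1 in the lower. The 5 were Ecel1, Cckbr, Sprr1a, the neuropeptide Npy and the tubulin Tubb6, and the 1 was Csf1, a macrophage growth factor. Atf3 had a near effect of 0.41 ± 0.19 and a late effect of 0.03 ± 0.19, neither of them called.

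**Figure D2:**
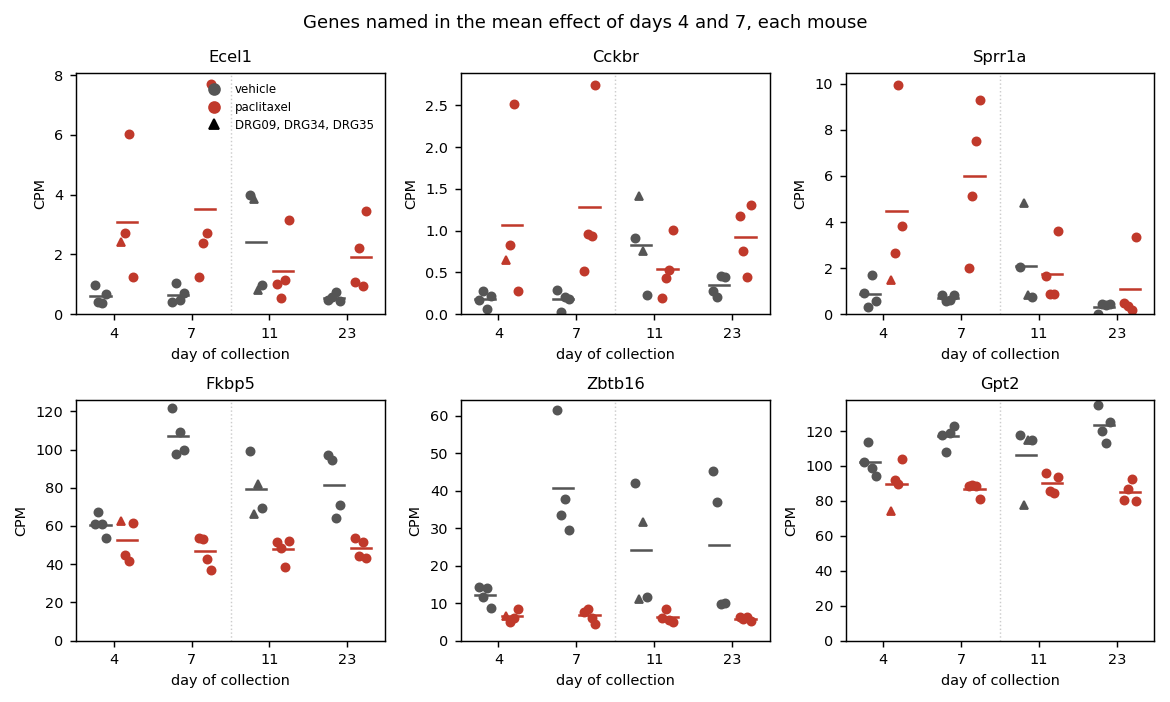
Level of 6 genes in CPM (vertical axes, from 0) in every DRG library by day of collection (horizontal axes), with vehicle mice in grey, paclitaxel mice in red, the mean of each group as a line, and 3 libraries with the highest neuron marker sums as triangles. For Ecel1 the groups were apart on days 4, 7 and 23 and overlapped on day 11, and Fkbp5 and Zbtb16 were lower after paclitaxel in both periods.

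Fkbp5 and Zbtb16 fell in both periods. Fkbp5 (chr17:28399094-28517527) was at 62.5, 45.0, 41.9 and 61.4 CPM in paclitaxel mice and 61.0, 67.2, 61.0 and 53.8 CPM in vehicle mice on day 4. By day 7 it was at 53.6, 53.3, 42.7 and 37.2 CPM after paclitaxel and 122, 97.5, 109 and 99.7 CPM after vehicle. The day 4 groups overlapped, whereas those of days 7, 11 and 23 did not. Its near effect was -0.70 ± 0.11 (adjusted p = 0.00691), its late effect -0.74 ± 0.11 (adjusted p = 0.000605, edgeR) and its interaction 0.04, with an interval of -0.27 to 0.35. The near mean covers unequal days, with -0.20 ± 0.15 on day 4 and -1.20 ± 0.15 on day 7, and the interaction was -0.46 with day 4 left out of the contrast and 0.54 with day 7 left out.

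Zbtb16 (chr9:48654297-48836222) was low in every paclitaxel mouse, at 4.49 to 8.50 CPM near dosing and 4.83 to 8.47 CPM later. The vehicle mice spread from 8.64 to 61.5 CPM near dosing and from 9.7 to 45.3 CPM later, and the groups overlapped on none of the 4 days. On day 23 the vehicle mice were at 45.3, 37.0, 9.70 and 9.90 CPM, far apart from each other. The near effect was -1.75 ± 0.29 (adjusted p = 0.0127) and the late effect -2.05 ± 0.29 (adjusted p = 0.000559, edgeR), with an interaction of 0.30 (-0.53 to 1.12). As for Fkbp5 the near days were unequal, and the interaction was -0.55 with day 4 left out of the contrast and 1.15 with day 7 left out. None of the 16 glucocorticoid-responsive genes had an unadjusted interaction p under 0.05, and the list's medians were -0.13 near and -0.16 late. Mt2, a metallothionein of that list, had a near effect of -0.61 ± 0.20 and a late effect of -0.64 ± 0.20, neither called.

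Among the clock genes called late, Dbp and Ciart had small near effects, and Arntl, described below, had a larger one that was not called. Dbp, a clock output transcription factor on chr7:45705088-45710203, was at 80.8, 67.1, 54.2 and 52.0 CPM in paclitaxel mice and 29.7, 12.5, 16.4 and 40.5 CPM in vehicle mice on day 11. On day 23 it was at 73.3, 66.3, 59.3 and 41.6 CPM against 18.1, 20.7, 28.3 and 28.0 CPM. The late groups were apart on both days, as for 0.262% of all genes, and the vehicle mice were the low ones. On day 4 it was at 34.6, 64.3, 56.3 and 55.4 CPM after paclitaxel and 34.7, 43.1, 51.0 and 43.1 CPM after vehicle. By day 7 the values were 43.6, 52.4, 38 and 57.3 CPM against 24.8, 41.2, 44.5 and 45.5 CPM, and the near groups overlapped on both days. Its late effect was 1.35 ± 0.19 (adjusted p = 0.000492), its near effect 0.29 ± 0.18 and its interaction -1.06 (-1.59 to -0.52; unadjusted p = 0.000334, adjusted p = 0.657, edgeR). The vehicle values of 12.5 and 16.4 CPM on day 11 came from DRG34 and DRG35, and the paclitaxel value of 34.6 CPM on day 4 from DRG09. These libraries are described below. Over the alternative settings, which included leaving them out, the interaction of Dbp lay between -1.12 and -0.72. Exons of Sphk2 on the opposite strand cover 18% of the exonic bases of Dbp, and the strand setting of the counting is not given, so reads of the 2 genes may be mixed there.

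Ciart, a repressor of the clock whose promoter is printed above, was at 2.14 to 6.04 CPM in late paclitaxel mice and 1.30 to 4.16 CPM in late vehicle mice. On day 23 Ciart was at 1.44 to 2.09 CPM in vehicle mice, below every late paclitaxel mouse. Vehicle values within the paclitaxel range were therefore from day 11. Its late effect was 1.15 ± 0.24 (adjusted p = 0.0445), its near effect 0.12 ± 0.23 and its interaction -1.02 (-1.70 to -0.34; adjusted p = 0.678, edgeR). The late call of Ciart was lost in 26 of the 32 fits that left out 1 mouse and in 3 other settings, and that of Dbp in none of the 32. Arntl (chr7:113207465-113314126), the activator, moved the other way and fell late by 0.94 ± 0.15 (adjusted p = 0.00402, edgeR). On day 23 it stood at 5.59, 5.72, 3.77 and 4.69 CPM after paclitaxel and 15.9, 10.8, 11.1 and 12.6 CPM after vehicle, with no overlap. On day 11 the groups overlapped, with 4.73 to 7.27 CPM against 6.33 to 9.94 CPM. Its near effect was -0.42 ± 0.15 and its interaction 0.52 (0.08 to 0.96; adjusted p = 0.78). The late mean of Arntl thus joins unlike days. Over the alternative settings, which included leaving out single days, its interaction lay between 0.11 and 0.93.

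Among the 14 clock repressors and outputs, 13 were above 0 in the late effect (47.1% of all genes were) with a median of 0.38, 8 had an unadjusted p under 0.05 (8.94% of all genes) and 2 were called higher, Dbp and Ciart (0.0428%). In the near effect 8 were above 0 with a median of 0.04, and 0 had an unadjusted p under 0.05. The median interaction was -0.38, and -0.19 without DRG09, DRG34 and DRG35. With all mice 7 members had an unadjusted interaction p under 0.05 (6.06% of all genes had), all in the lower direction: Dbp, Ciart, Nr1d1, Nr1d2, Tef, Hlf and Bhlhe40. Per1 and Cry1 had interactions of -0.15 and 0.10. The hour at which each mouse was killed is not given, and its part in these values was not tested.

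Of the endoplasmic reticulum genes, 5 fell in the late effect and 0 were called near dosing. Leaving out single mice ended the late call of Manf in 27 of 32 fits, of Creld2 in 8, of Pdia6 in 5, and of Hspa5 and Xbp1 in 1 each. Hspa5, the chaperone BiP, on chr2:34771970-34777547 (GENCODE, whose gene start lies before the RefSeq start, so that the printed stretch falls inside this span), was at 212, 217, 243 and 249 CPM in paclitaxel mice and 248, 355, 372 and 303 CPM in vehicle mice on day 11. On day 23 it was at 222, 203, 224 and 233 CPM against 325, 277, 288 and 289 CPM. The groups touched at 1 vehicle mouse on day 11 and were apart on day 23. Near dosing the ranges were 184 to 288 CPM after paclitaxel and 231 to 273 CPM after vehicle, so the paclitaxel mice covered the vehicle range. The late effect was -0.45 ± 0.08 (adjusted p = 0.0121), the near effect -0.12 ± 0.08 and the interaction 0.33 (0.10 to 0.55; unadjusted p = 0.00663, adjusted p = 0.711, edgeR).

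Creld2, a secreted chaperone-like protein, was at 9.74, 11.7, 11.6 and 9.79 CPM after paclitaxel on day 23 and at 24.1, 13.7, 18.7 and 22.7 CPM after vehicle, with no overlap. On day 11 it overlapped, at 13 to 14 CPM against 13.6 to 21.5 CPM. Its late effect was -0.59 ± 0.11 (adjusted p = 0.0265, edgeR), its near effect -0.01 ± 0.11 and its interaction 0.58 (0.26 to 0.91). Xbp1, the transcription factor of this response, had late levels of 59.8 to 69.2 CPM after paclitaxel and 73.9 to 98.3 CPM after vehicle, with no overlap on either late day. Its late effect was -0.40 ± 0.07 (adjusted p = 0.0147, edgeR), its near effect -0.09 ± 0.07 and its interaction 0.31 (0.10 to 0.52). Pdia6, a protein disulphide isomerase, fell late by 0.33 ± 0.06, and the secreted factor Manf by 0.39 ± 0.08, with interactions of 0.22 (0.05 to 0.40) and 0.34 (0.10 to 0.58).

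Of the 18 endoplasmic reticulum stress genes tested, 17 were below 0 in the late effect with a median of -0.17, 13 had an unadjusted p under 0.05 (8.94% of all genes) and 5 were called lower (0.0748%). In the near effect 10 were below 0 with a median of -0.02, and 0 had an unadjusted p under 0.05. The interaction was above 0 for 17 of 18, beside 52.2% of all genes, with a median of 0.22 (0.14 without DRG09, DRG34 and DRG35). Among the 18, 9 had an unadjusted interaction p under 0.05, beside 6.06% of all genes. The mean level of these genes in paclitaxel mice was 5.92, 5.94, 5.90 and 5.88 as a mean log2(CPM + 1) on days 4, 7, 11 and 23. Vehicle mice stood at 5.92, 5.97, 6.12 and 6.10. Between vehicle mice of near and late days none of the 18 genes was above 0, that is higher near dosing (47.2% of all genes were). An unadjusted p under 0.05 was reached by 11 (4.78% of all genes), and 0 were called. Between paclitaxel mice 14 were higher (52.2% of all genes were) and 0 had an unadjusted p under 0.05. Age, cage and collection day cannot be told apart from the period.

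**Figure D3:**
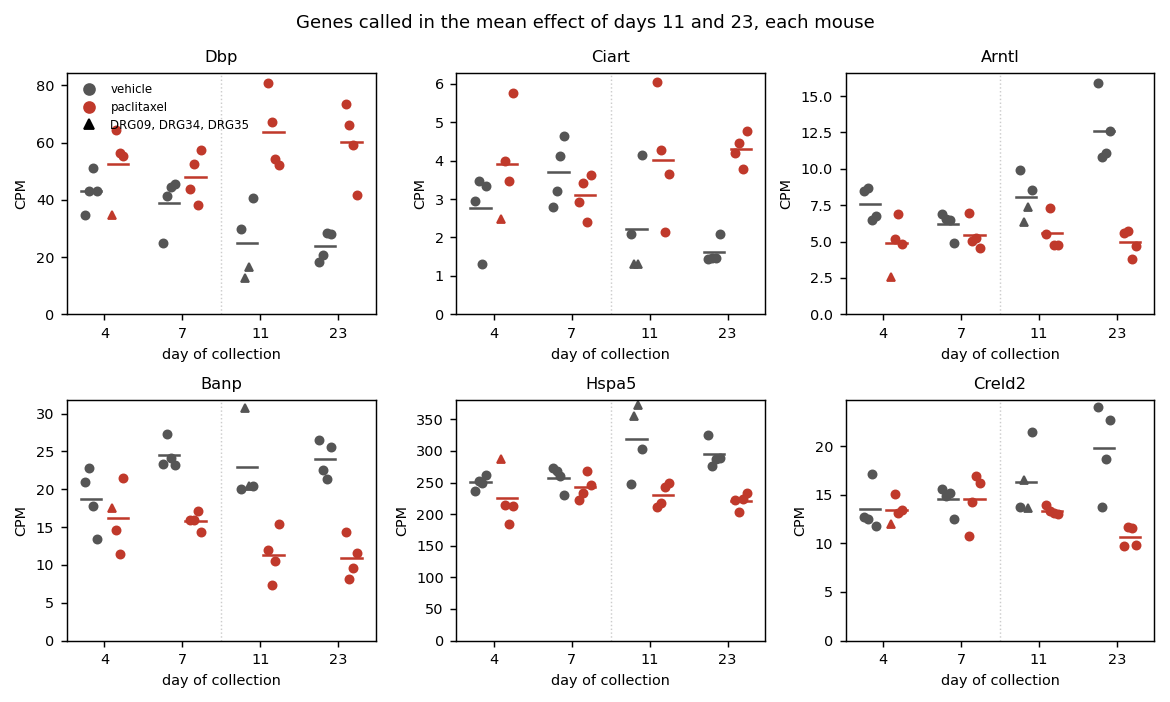
Level of 6 genes called in the late effect, in CPM (vertical axes, from 0), in every DRG library by day of collection (horizontal axes), with vehicle mice in grey, paclitaxel mice in red, group means as lines, and 3 libraries with the highest neuron marker sums as triangles. Dbp and Ciart were lower and Arntl, Banp, Hspa5 and Creld2 higher in vehicle than in paclitaxel mice on day 23, with groups closer together on days 4 and 7.

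Banp, a nuclear matrix protein that binds DNA, on chr8:121949750-122029258, had the smallest late adjusted p. It was at 12.0, 7.38, 10.5 and 15.4 CPM after paclitaxel and 20.1, 30.7, 20.4 and 20.4 CPM after vehicle on day 11. On day 23 it was at 14.3, 8.18, 9.62 and 11.6 CPM against 26.5, 22.6, 21.3 and 25.6 CPM. On day 7 the groups were already apart, at 14.3 to 17.1 CPM against 23.2 to 27.3 CPM, and on day 4 they overlapped, at 11.4 to 21.5 CPM against 13.4 to 22.8 CPM. Its daily effects were -0.20, -0.63, -1.02 and -1.13 with a standard error of 0.20 each. The late effect was -1.08 ± 0.14 (adjusted p = 0.000325, edgeR), the near effect -0.42 ± 0.14 and the interaction 0.66 (0.26 to 1.06; adjusted p = 0.671). Here the vehicle medians were alike in both periods, at 23 and 21.9 CPM, and the paclitaxel median was 16 CPM near dosing and 11.1 CPM later. The near vehicle median joins unlike days, since every vehicle mouse of day 4 was below those of day 7. In the comparison of paclitaxel mice between periods Banp was 0.53 higher near dosing (unadjusted p = 0.000762, edgeR, not called).

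Lss, lanosterol synthase of the cholesterol pathway, rose late by 0.49 ± 0.10 (adjusted p = 0.0304, edgeR), with 68 to 87.3 CPM after paclitaxel and 40.7 to 62.2 CPM after vehicle and no overlap on either late day. Near dosing its effect was 0.02 ± 0.10, with 46.4 to 88.4 CPM against 60.5 to 80.7 CPM, and the interaction was -0.46 (-0.74 to -0.19). Of 24 cholesterol synthesis genes, Lss was the only 1 called late (0.118% of all genes were). An unadjusted late p under 0.05 was found for 5 (8.94% of all genes), and the median interaction was -0.05. Without DRG09, DRG34 and DRG35 the interaction was below 0 for all 24, with a median of -0.15 and 9 at an unadjusted p under 0.05, in a fit where 2246 of all 19597 genes had one. The remaining late genes were Nxpe4, Atxn1, Ptprb, Rcor3 and Tfdp2, which rose by 0.31 to 0.53, and Vstm2b, Cdo1, Gpt2, Grcc10 and Rad9a, which fell. Leaving out single mice ended the late call of Tfdp2 in 29 of 32 fits, of Rcor3 in 27 and of Ptprb in 25. It ended that of Vstm2b and Cdo1 in 23 each, and of Nxpe4 and Rad9a in 17 each. The late call was lost in 11 such fits for Lss, in 9 for Atxn1 and in 7 for Gpt2. Gpt2, alanine aminotransferase, fell late by 0.39 ± 0.07 with a near effect of -0.31 ± 0.07 that was not called (adjusted p = 0.543, edgeR), and its interaction was 0.08 (-0.14 to 0.29).

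Grcc10, on chr6:124739183-124741374, had the smallest p of the interaction. On day 11 it was at 17.7, 16.8, 18.1 and 15.4 CPM after paclitaxel and 22.3, 20.7, 21.2 and 24.4 CPM after vehicle. On day 23 it was at 18.9, 21.1, 15.3 and 18.4 CPM against 22.7, 24.1, 22 and 22.9 CPM, and the groups were apart on both late days. Near dosing the ranges were 17.9 to 25.7 CPM after paclitaxel and 17.1 to 20.5 CPM after vehicle, and they overlapped. Its near effect was 0.15 ± 0.07, its late effect -0.35 ± 0.07 (adjusted p = 0.0445) and its interaction 0.50 (0.29 to 0.71; unadjusted p = 3.45e-05, adjusted p = 0.645, edgeR). Its late call was lost in 26 of the 32 fits that left out 1 mouse and in 3 other settings, with late effects of -0.38 to -0.31, and its interaction lay between 0.44 and 0.54 over the settings tried. Exons of another gene, Gm45234, cover 20.2% of its exonic bases on the same strand, so its count is uncertain there.

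The other leading genes with a higher effect near dosing were Lin37 (0.51, 0.28 to 0.74), a subunit of the DREAM cell cycle complex, P2rx4 (0.41, 0.22 to 0.60), an ATP-gated channel, and Gfra4 (0.53, 0.28 to 0.79), a co-receptor of the GDNF family. Ntng2, a netrin-like axon guidance molecule, was at 0.55 (0.27 to 0.83) and Vstm2b at 0.71 (0.34 to 1.08). Arf5, Pgls, Aup1 and the respiratory chain subunit Cox8a lay between 0.27 and 0.37. None of these passed, with adjusted p-values of 0.657 to 0.67 (edgeR). Each of the 10 genes had a near effect above 0 and a late effect below 0. They were chosen by a small p of the near minus late difference, so opposite signs can come from that choice alone. Over all genes the near and late effects had the same sign in 45.6%. Exons of another gene cover 23% of the exonic bases of Aup1, 20.6% of Pgls, 16.4% of Arf5 and 14% of Ntng2. Reads may be mixed there, as for Grcc10.

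In the lower direction the leading genes beside Dbp were Rcan3 (-0.27, -0.40 to -0.13), a calcineurin regulator, Armcx4 (-0.42), the zinc finger gene Zfp369 (-0.48), Rc3h1 (-0.42), the RNA-binding Roquin protein, and Lrba (-0.40). Abat, which breaks down the transmitter GABA, was at -0.28 (-0.43 to -0.13), Cemip2 at -0.30, Rfx7 at -0.40 and Rbm15 at -0.58. Except for Dbp, whose 2 effects were both above 0, each had a near effect below 0 and a late effect above 0. These genes were chosen in the same way, so their opposite signs can also come from that choice alone. Rcan3 levels had medians of 113 CPM after paclitaxel and 123 CPM after vehicle near dosing, and of 123 and 111 CPM later, and the groups overlapped in both periods.

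**Figure D4:**
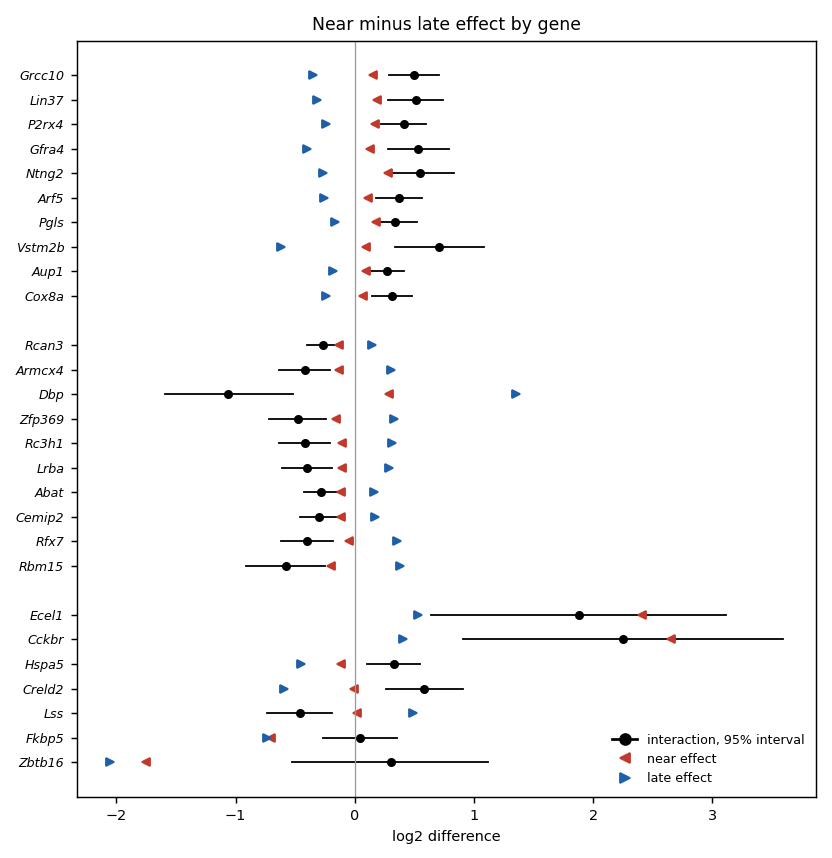
Near minus late effect (black points, with 95% intervals as lines), near effect (red) and late effect (blue), in log2 units on the horizontal axis, for the 10 genes of smallest p in each direction and for 7 further genes. The intervals of the 20 leading genes exclude 0 before adjustment and no gene passed after adjustment, while those of Fkbp5 and Zbtb16 span 0.

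The interaction can also be read as the change between periods in paclitaxel mice minus that in vehicle mice. Neither change called a gene (0% of 18709 each): 895 genes (4.78%) had an unadjusted p under 0.05 in vehicle mice and 1082 (5.78%) in paclitaxel mice. Of the 20 leading genes, 12 had the larger change in the vehicle mice, as had 47.3% of all genes. Dbp, for example, was 0.76 higher near dosing in vehicle mice (unadjusted p = 0.000316, edgeR) and -0.30 in paclitaxel mice. The smallest p in vehicle mice belonged to Hsp90b1, another endoplasmic reticulum chaperone (-0.24, adjusted p = 0.818), and in paclitaxel mice to Phkg2, a phosphorylase kinase subunit (0.25, adjusted p = 0.667, edgeR). DESeq2 called Hsp90b1 in vehicle mice, and Phkg2 and the chemokine Cxcl9 in paclitaxel mice. Exons of Ccdc189 on the opposite strand cover 21.9% of the exonic bases of Phkg2, where reads may be mixed.

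Libraries differed in their levels of cell type markers in a way that touches the contrast. The summed level of 16 sensory neuron markers was 25000 CPM in DRG09 (paclitaxel, day 4) and 27400 and 23400 CPM in DRG34 and DRG35 (vehicle, day 11), and 12000 to 17000 CPM in the 29 others. Myelin and Schwann cell markers summed to 7540, 9030 and 13100 CPM in those 3 libraries and 12900 to 24200 CPM in the others. These mice stand in groups that enter the interaction with the same sign as each other for neuron genes, and the neuron markers had a median interaction of 0.14, beta tubulins 0.20, alpha and gamma tubulins 0.16, and nuclear oxidative phosphorylation genes 0.16. Without the 3 libraries these medians were -0.06, -0.14, -0.13 and -0.04, and that of the cytosolic heat shock genes went from 0.15 to -0.05. The lists of endoplasmic reticulum stress, clock repressor and nerve injury genes kept their sign, at 0.14, -0.19 and 0.22. The interaction again called 0 genes without them, with a smallest adjusted p of 0.143, and the late effect called 85.

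**Figure D5:**
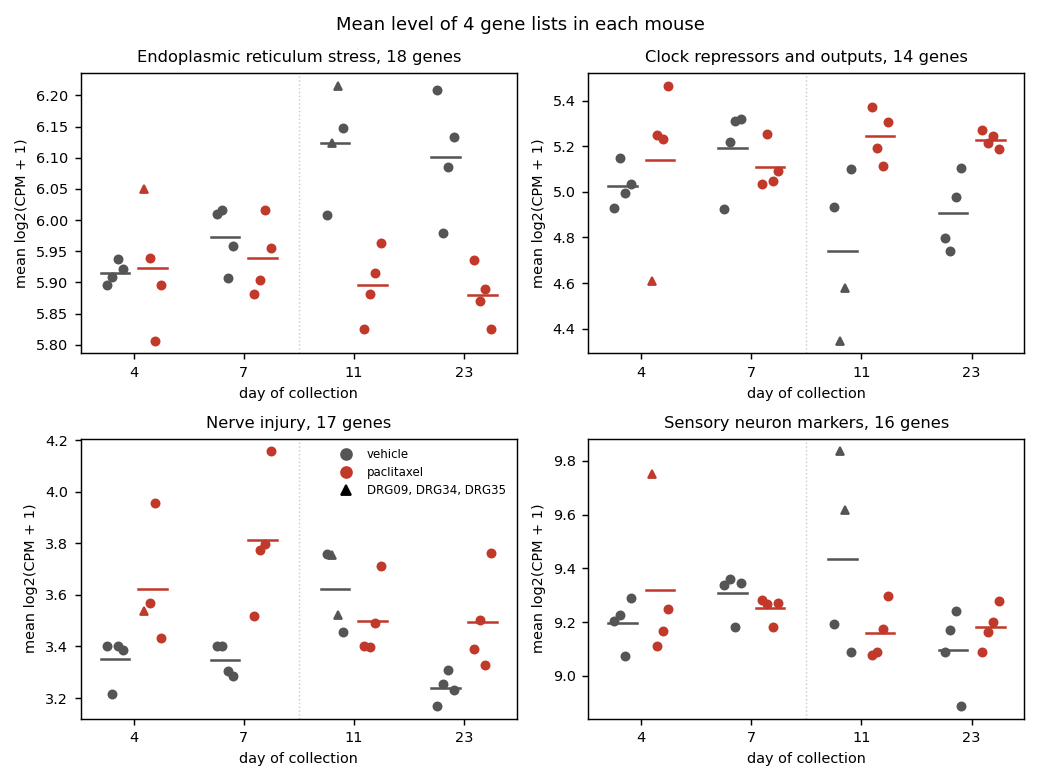
Mean log2(CPM + 1) of 4 gene lists (vertical axes, not from 0) in every DRG library by day of collection (horizontal axes), with vehicle mice in grey, paclitaxel mice in red, group means as lines, and DRG09, DRG34 and DRG35 as triangles. Endoplasmic reticulum stress genes were higher in vehicle than in paclitaxel mice on days 11 and 23 with closer means on days 4 and 7, nerve injury genes were higher after paclitaxel on days 4, 7 and 23 and not on day 11, and the triangles stand above all others for neuron markers.

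Markers of other tissues varied as well. Skeletal muscle markers summed to 49.0 to 8870 CPM, highest in DRG42, with a median interaction of 1.27 over 16 genes and 0 of them at an unadjusted p under 0.05. Between vehicle mice of near and late days their median was -3.28, lower near dosing. There 12 of the 16 had an unadjusted p under 0.05 (4.78% of all genes) and 0 were called. Between paclitaxel mice the median was -1.93, with 2 at an unadjusted p under 0.05 (5.78% of all genes) and 0 called. Keratinocyte markers had a median interaction of -1.34 over 14 genes, and 11 libraries held more than 10 CPM of the skin keratin Krt10. Their part in the results was not tested beyond the fits with these markers as covariates or without those libraries, in which the interaction called 0 genes. Of 12 neutrophil markers 11 were below 0 in the interaction, with a median of -0.65, while 52.2% of all genes were above 0. Mmp8 and Retnlg (-1.40 each) were the 2 with an unadjusted p under 0.05, beside 6.06% of all genes. Mitochondrially encoded genes made up 1.77% to 10.08% of counts.

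In the skin of the same groups, fitted apart, the interaction also called 0 of 18578 genes (0%), with 952 (5.12%) at an unadjusted p under 0.05 and a smallest adjusted p of 0.318. The near effect in skin called 2 genes (0.0108%) and the late effect 918 (4.94%). Fkbp5 fell in skin in both periods, by 1.37 near and 1.01 late. Dbp had skin effects of 0.08 near and 0.46 late and Arntl of -0.32 and -0.62, of which the late ones were called (adjusted p = 0.0115 and 0.00113, edgeR). Hspa5 was at -0.05 in both periods in skin. DRG and skin effects were not compared by a test.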

How the data were processed

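RNA of dorsal root ganglia and skin was sequenced with single reads (62 DRG runs). Per the submitters' processing notes and the study's methods, the authors used Trimmomatic 0.38 for trimming and STAR for alignment to GRCm38 and for counting, and deposited 1 table of raw counts per tissue, with 1 column per mouse. The labels name oligo-dT and the methods ribosomal depletion, and the strand setting is not given in the sources used here. Another 28 columns were empty and not used. Entries without a gene name (118, 0.0132% of counts) were left out. Depth was 22146536 to 52904112 counts per DRG library, which limits genes near 1 CPM most. One of the DRG09 runs is labelled vehicle day 23, whereas its other run and the study's sample table give paclitaxel day 4. The mouse was placed by that other run, and its column of counts was taken to combine both runs. DRG09 is also among the libraries with the highest neuron marker sums.

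All 8 groups of a tissue entered a single model in edgeR 4.0.16 (R 4.3.3; TMM, filterByExpr, quasi-likelihood tests), with Benjamini-Hochberg adjustment at 0.05 over all genes tested. The biological coefficient of variation in DRG (root of edgeR's common dispersion) came to 0.223, and CPM are per TMM-scaled library. Alternatives used DESeq2 1.42.0, limma 3.58.1, sva 3.50.0, covariates and left-out libraries or days, and the code was tested on simulated data.

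The comparison and gene lists were chosen with earlier results of these data known. By rule, genes were named as the 10 of smallest interaction p in each direction (average log2 CPM of at least 0, no predicted models), the 5 largest called in each period and direction, the 3 of smallest p between periods within a treatment, and up to 4 members of smallest interaction p in a list. Cckbr, which is below that level, the smaller late genes, Atf3, Mt2, Per1, Cry1, Nr1d2, Tef, Hlf, Tubb6 and Csf1 in their lists were named after their values were seen. Positions are from GENCODE M21 (GRCm38).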

Additional observations from a re-analysis of the deposited data

Results flagged for a closer look

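Of 160 groups of 4 mice examined, for 16 genes and 4 marker sums, 9 held a mouse far from the other 3, and chance alone flags about 1 in 20 groups. Ciart was at 2.09 CPM in DRG52 (vehicle, day 23) beside 1.44 to 1.47 CPM in the others. Banp was at 30.7 CPM in DRG34 (vehicle, day 11) beside 20.1 to 20.4 CPM. Creld2 was at 17.2 CPM in DRG07 (vehicle, day 4) beside 11.8 to 12.7 CPM. Sprr1a was at 3.33 CPM in DRG60 (paclitaxel, day 23) beside 0.187 to 0.478 CPM, and at 0 CPM in DRG49 (vehicle, day 23) beside 0.382 to 0.448 CPM.

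Skeletal muscle markers summed to 8870 CPM in DRG42 (paclitaxel, day 11) beside 61.2 to 1050 CPM, to 2040 CPM in DRG49 (vehicle, day 23) beside 53.4 to 101 CPM, and to 369 CPM in DRG60 (paclitaxel, day 23) beside 49.0 to 72.6 CPM. Schwann cell and myelin markers summed to 7540 CPM in DRG09 (paclitaxel, day 4) beside 19500 to 21600 CPM.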

How the results depend on the processing

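The interaction in DRG called 2 genes with DESeq2's Wald test and 0 in each of the other alternatives run and in every fit that left out 1 mouse (edgeR, 1134 genes at an unadjusted p under 0.05 with all mice), and the skin interaction and the spread between days called 0 in all that were run. The near count was 0 without the 11 libraries above 10 CPM of Krt10, which leaves 2 to 4 mice per group, and 1 to 5 leaving out single mice. The late count of 22 was 106 with DESeq2's Wald test, 40 with limma voom, 14 with no filter on low counts, 170 with 1 surrogate variable, 50 with the keratinocyte covariate, 96 with the sensory neuron covariate, 59 with the mitochondrial share, 62 without DRG09 and DRG34, 85 without DRG09, DRG34 and DRG35, and 1 without the Krt10 libraries. It ranged from 5 (without DRG49) to 71 (without DRG09) leaving out single mice. In vehicle mice the count was 1 with DESeq2, 3 with a surrogate variable, 1 with the neuron covariate and 13 without DRG09, DRG34 and DRG35, and in paclitaxel mice it was 2 with DESeq2. The neuron covariate and the fit without 3 libraries were chosen after seeing the data. The cause of these differences was not tested.

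The sign of the interaction turned for 3 genes: Fkbp5 was at -0.01 with limma voom and -0.46 with day 4 left out, and from -0.02 to 0.10 leaving out single mice, Zbtb16 at -0.55 with day 4 left out, and Gpt2 at -0.05 with day 4 left out, -0.07 with day 23 left out and -0.04 without the Krt10 libraries. No paired analysis was possible because the labels number mice singly and share no replicate number between groups.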
